A study of Mus musculus with 4 samples.

Results

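Gas6, Pros1, Axl, Mertk, Mfge8, Timd4 and Stab1 belong to the system by which phagocytes find and engulf dying cells. They are 7 of the 32285 genes counted in single CD45+ cells of mouse melanomas, and all 7 were found in the matrix. The genes were chosen by name with their levels in these same tumours already known. The levels and ratios below are therefore a description, carry no test, and are not independent support for a difference.

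A dying cell exposes phosphatidylserine on its surface. Bridging molecules bind this lipid and tie the corpse to a receptor on the phagocyte, a process called efferocytosis. Gas6 and protein S, the product of Pros1, are ligands of the TAM family of receptor kinases, named for Tyro3, Axl and Mertk. MERTK is mostly known from macrophages that clear dying cells, and AXL from cells exposed to inflammatory signals. Signalling through both also dampens cytokine responses of the phagocyte. Mfge8 encodes a bridging molecule for integrins, and Timd4 and Stab1 encode receptors that bind phosphatidylserine directly. In the text, TAM in a cell type name such as TAM_C1q stands for tumour-associated macrophage and not for the receptor family.

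Each of the 4 groups was 1 sample of live CD45+ cells sorted from melanomas of YUMM1.7OVA, the ovalbumin-expressing form of the mouse line YUMM1.7, grown in Rag2-/- mice, which lack their own T and B cells. Activated OT-1 CD8+ T cells were transferred (adoptive cell transfer, ACT) on day 7, and tumours were taken on day 10, 72 h later. NTT tumours came from Y1.7_NTT_3A6 cells, naive to targeted therapy. RTT tumours came from Y1.7_RTT_2B12 cells, which are resistant to it. RTT_ROSA26 tumours came from resistant cells with a control guide against the Rosa26 locus, and RTT_PTGS12KO tumours from resistant cells in which Ptgs1 and Ptgs2, the genes of both cyclooxygenases, were knocked out. The knockout was in the injected cancer cells and not in the immune cells measured. The labels give 1 tumour per condition, whereas the study describes several tumours pooled per group for such data. Each group is 1 sample either way and is called a tumour below, which may stand for a pool. No difference between groups has a replicate check, and the line and the tumour that grew from it cannot be told apart.

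The guides that define the knockout are printed from the study's guide table, 5′ to 3′ in lower case with the adjoining PAM in capitals as read from the reference transcripts. Positions are GRCm38.
Ptgs1 guide: gcacacggaaggaaacatagGGG
Ptgs2 guide: gttgtgctcccgaagccagaTGG
The Ptgs1 guide lies at chr2:36251276-36251295 on the minus strand, in coding exon 11 of Ptgs1-201. The Ptgs2 guide lies at chr1:150104014-150104033 on the minus strand, in coding exon 7 of Ptgs2-201.

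The promoters of the 4 genes that the results turn on are shown because Gas6, Stab1 and Mertk were lower, and Axl higher, in the same pair of comparisons. Each is the 250 bases before the RefSeq start site (GRCm38.p6), on the gene's own strand. Capitals mark GGGCGG or its complement CCGCCC, the core of the GC box that Sp/Klf factors can bind.
Gas6 promoter, chr8:13494536-13494785, minus strand: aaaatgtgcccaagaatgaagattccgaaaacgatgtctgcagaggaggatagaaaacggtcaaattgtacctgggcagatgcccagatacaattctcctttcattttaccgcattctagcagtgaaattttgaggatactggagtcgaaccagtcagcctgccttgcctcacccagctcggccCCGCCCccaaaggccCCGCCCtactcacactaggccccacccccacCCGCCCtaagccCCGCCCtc
Stab1 promoter, chr14:31168642-31168891, minus strand: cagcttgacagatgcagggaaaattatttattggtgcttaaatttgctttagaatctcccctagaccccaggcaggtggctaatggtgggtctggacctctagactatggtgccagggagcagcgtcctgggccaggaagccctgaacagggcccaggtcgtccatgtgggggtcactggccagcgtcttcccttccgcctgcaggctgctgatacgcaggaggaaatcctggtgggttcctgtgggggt
Mertk promoter, chr2:128698665-128698914, plus strand: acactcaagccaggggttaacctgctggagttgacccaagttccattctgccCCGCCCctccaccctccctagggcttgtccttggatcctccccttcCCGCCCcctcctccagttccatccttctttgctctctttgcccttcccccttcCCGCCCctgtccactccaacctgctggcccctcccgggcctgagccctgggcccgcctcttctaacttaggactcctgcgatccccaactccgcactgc
Axl promoter, chr7:25788734-25788983, minus strand: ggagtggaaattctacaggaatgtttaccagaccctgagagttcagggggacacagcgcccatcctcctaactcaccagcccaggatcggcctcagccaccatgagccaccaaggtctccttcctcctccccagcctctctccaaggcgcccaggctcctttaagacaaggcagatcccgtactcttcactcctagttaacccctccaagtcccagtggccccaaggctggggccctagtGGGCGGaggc

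The search covered both strands of the 300-base windows, which add the first 50 transcribed bases. GGGCGG, a motif added after the data were seen, matched 4 times for Gas6, 4 for Mertk, 2 for Axl, 5 for Pros1, 4 for Mfge8 and not at all for Stab1 and Timd4. It was present in 35.7% of all 32851 mouse windows. The core of the interferon-stimulated response element (3.44% of windows), the cAMP response element TGACGTCA (1.79%) and the AP-1 site TGANTCA (7.81%) had no match in any of the 7. The STAT motif TTCNNNGAA (8.30%) matched for Pros1 alone. Gas6 and Stab1, whose levels moved alike, thus shared no match.

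The matrix held 33368 cells in 17 annotated cell types, between 6836 and 10296 cells and between 69332486 and 146829369 unique molecular identifiers (UMIs, each a counted transcript molecule) per tumour. Median UMIs per cell ran from 7292.5 in NTT to 13280 in RTT_ROSA26. The 5 macrophage types (TAM_C1q, TAM_Spp1, TAM_cycling, TAM_H2Ab1 and Ctsk_Macro) together held 308 (NTT), 6734 (RTT), 5993 (RTT_ROSA26) and 5207 (RTT_PTGS12KO) cells. Monocytes held 6619, 522, 144 and 4015 cells in the same order. The macrophage markers were detected in every class named macrophage, but also in other types, so their detection does not set the classes apart. Their sum over all tumours was 14163 UMIs per 1000000 in Ctsk_Macro and 14790 in TAM_Spp1, near the 14173 of neutrophils. It was higher in TAM_H2Ab1 (21314), TAM_cycling (21957) and TAM_C1q (38483). Myofibrobl cells had 18.5 UMIs per 1000000 (CPM) of Ptprc, which encodes CD45, and were led by Mgp, Cald1 and Col1a2, so the name goes against the CD45+ sort. All tumours were pooled and loaded 3 times, so free RNA was shared between them. Of the cell barcodes, 75 sequences occurred in more than 1 tumour, and none was repeated within a load.

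A level is the UMIs of a gene per 1000000 UMIs of all cells of a type or class in 1 tumour (CPM), and brackets give its 95% Poisson interval. A ratio is the log2 of CPM + 1 in one tumour over CPM + 1 in the other. Intervals cover counting error only. The counts come from the 3′ end of transcripts, so levels are compared between tumours and cell types and not between genes. A gene past the fold is at least 1 higher or lower on the log2 scale whose mean over both tumours was at least 10 CPM.

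Gas6, the TAM ligand that binds both AXL and MERTK, was low in macrophages of NTT and of the knockout tumour and high in both other resistant tumours. NTT macrophages had 19.7 CPM (15.6 to 24.5) and knockout macrophages 43.3 (42.0 to 44.7). RTT had 90.7 CPM (88.9 to 92.7) and RTT_ROSA26 112 (109 to 114). The 4 intervals did not overlap. The class was not made of the same types in each tumour. TAM_H2Ab1, the antigen-presenting macrophages, made up 192 of the 308 NTT macrophages but 63 of 6734 in RTT, where TAM_C1q held 3412, and 12 NTT cells were TAM_C1q. A class value for NTT against RTT therefore compares different types in large part, and only TAM_H2Ab1 and TAM_cycling had enough cells in both for a ratio within a type. NTT over RTT gave a log2 ratio of -2.15 (-2.47 to -1.85) for the class, -2.38 (-2.94 to -1.85) within TAM_cycling and -0.57 (-1.36 to 0.25) within TAM_H2Ab1, where it did not exceed counting error. In the class, the knockout over its control, RTT_ROSA26, gave -1.34 (-1.40 to -1.29). Between the 2 resistant tumours that keep both cyclooxygenases, RTT_ROSA26 against RTT, it was 0.29 (0.25 to 0.33). This is the difference in a single pair of tumours and does not give the range of differences without the knockout. The 3 loads of 1 pool gave 86.5 to 94.7 CPM for RTT and 42.5 to 44.4 for RTT_PTGS12KO, but 13.8 to 24.5 for NTT, where 80 UMIs in all carried the value.

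Most Gas6 UMIs came from few cell types. Of 9320 Gas6 UMIs in RTT, 72.5% were in TAM_C1q and 20.0% in TAM_cycling, types that held 42.4% and 15.6% of all UMIs there. In RTT_ROSA26, the shares of 11784 Gas6 UMIs were 44.0% and 48.3%. In RTT_PTGS12KO, they were 51.6% and 36.3% of 4109. NTT held 194 Gas6 UMIs in all, and the most, 26.8%, were in Monocyte_1. That type held 4977 of the 8266 NTT cells, and its Gas6 level there was 1.31 CPM. NTT held 12 TAM_C1q cells, too few for a level. A share of a gene's UMIs moves with the number of cells of a type, and the levels within a type do not.

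Within TAM_C1q, complement-rich macrophages, the level of Gas6 was 136 CPM in RTT, 150 in RTT_ROSA26 and 89.8 in RTT_PTGS12KO. Gas6 is itself among the 10 leading genes of TAM_C1q, so its height there is part of what defines the type. In TAM_cycling, the proliferating macrophages, the levels were 18.9 CPM (NTT), 103 (RTT), 133.5 (RTT_ROSA26) and 36.5 (RTT_PTGS12KO). The ratio of knockout to control was -0.74 in TAM_C1q and -1.84 in TAM_cycling, and the difference between the types was not tested. TAM_Spp1, the other large macrophage type, was low in Gas6 in every resistant tumour, at 4.97, 7.29 and 5.21 CPM in RTT, RTT_ROSA26 and RTT_PTGS12KO.

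The tissue-resident-like type annotated Macro, led by Retnla, Ccl8 and Lyve1 and kept apart from the 5 macrophage types, had the highest Gas6 level of any type in each of 3 tumours. It was 120 CPM (NTT), 276 (RTT), 417 (RTT_ROSA26) and 36.0 (RTT_PTGS12KO). The NTT value came from 21 cells and 31 UMIs, 20 of them in 1 cell, without which it was 45.9 CPM. In the knockout tumour the level was below that of TAM_C1q, and the ratio to RTT_ROSA26 was -3.50 (-3.95 to -3.07). The summed level of the 8 macrophage markers in Macro was 9549 CPM in RTT_PTGS12KO and 37318 in RTT_ROSA26, and that of its own 6 markers 1776 and 3432 CPM. The makeup of the type thus moved with Gas6, and its part in the ratio was not tested. In TAM_H2Ab1 the Gas6 level was 16 CPM in NTT, 24.3 in RTT and 27.9 in RTT_PTGS12KO.

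Gas6 was also counted in types that are not macrophages. Infl_Mono, the interferon-rich monocytes, had 1.18 CPM (NTT), 47.1 (RTT), 19.1 (RTT_ROSA26) and 4.39 (RTT_PTGS12KO). Of the 60 UMIs in RTT 16 were in 1 cell, without which the level was 35.2 CPM. Neutrophils had 1.72, 35.9, 68.2 and 21.6 CPM in the same order of tumours. The last had 15 of 31 UMIs in 1 cell, without which it was 11.4 CPM. The sum of the 8 macrophage markers ranked the tumours as Gas6 did in neutrophils and, in Infl_Mono, with NTT and the knockout exchanged. It was 4764, 25754, 10764 and 3550 CPM in Infl_Mono and 5062, 18929, 19819 and 7593 CPM in neutrophils. NK cells of RTT_ROSA26, 26 in number, had 41.3 CPM of Gas6 and 7999 CPM of macrophage markers, against 0.839 and 1130 CPM in NTT. Of the 19 Gas6 UMIs in those 26 cells 11 were in 1 cell, without which the level was 21.9 CPM. The part of macrophage RNA in the Gas6 of these types was not tested.

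**Figure D1:**
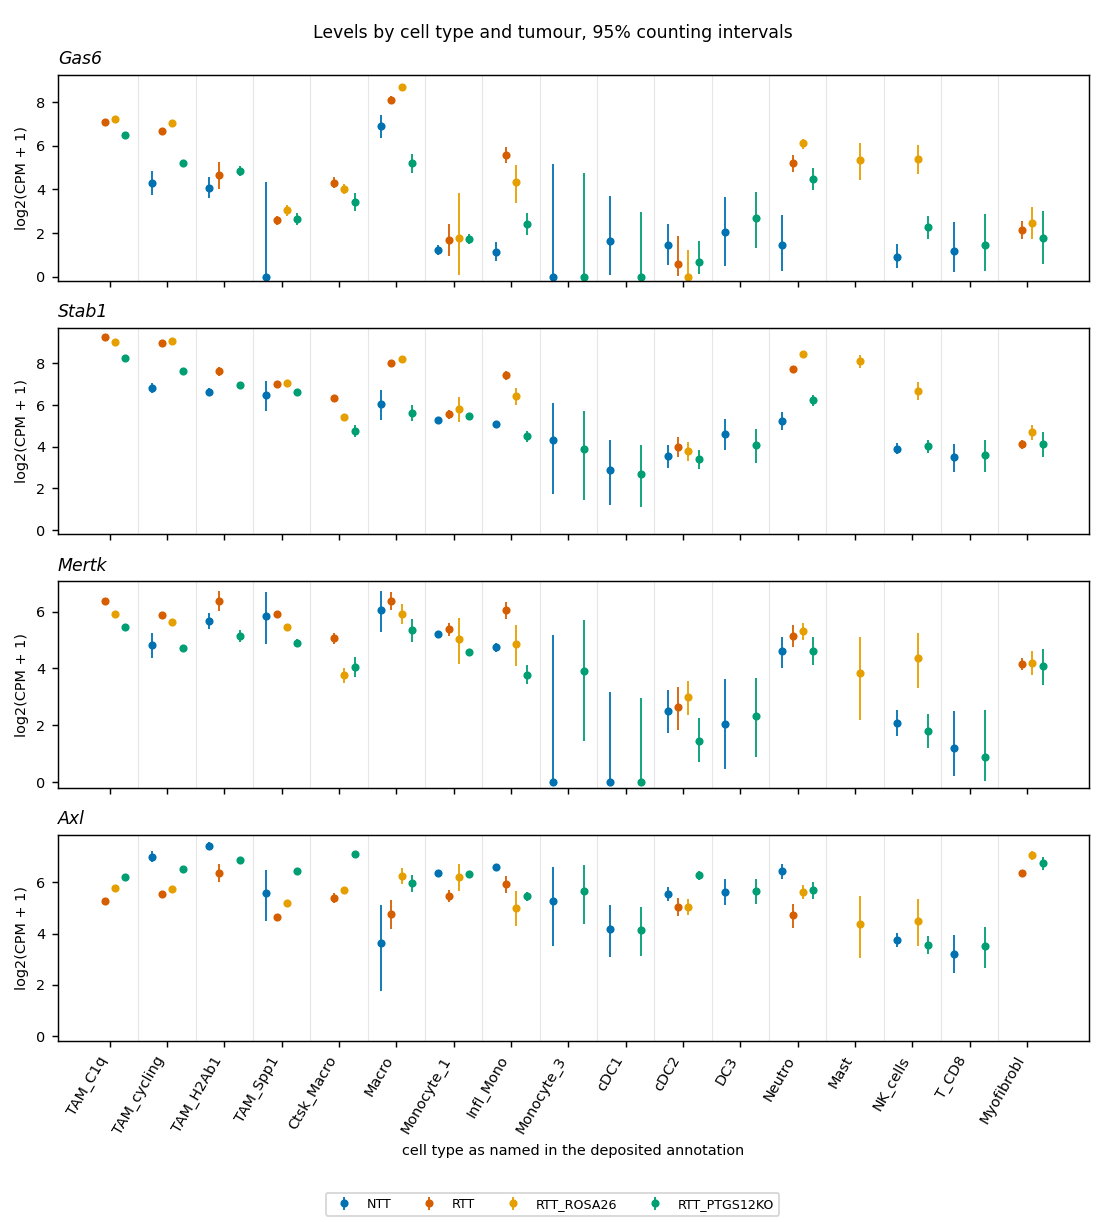
Levels of Gas6, Stab1, Mertk and Axl, as log2 of CPM + 1, in each cell type with at least 20 cells in a tumour. Each point is 1 tumour and bars are 95% counting intervals. In TAM_cycling, Gas6, Stab1 and Mertk are lowest in NTT and RTT_PTGS12KO, whereas Axl is highest there.

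As a share of cells, with each cell thinned to 3000 UMIs so that depth is equal, 3.27% of macrophages in NTT had a Gas6 UMI, against 18.1% of RTT, 20.8% of RTT_ROSA26 and 9.76% of knockout macrophages. Without thinning the shares were 15.3%, 41.1%, 46.6% and 28.4%, in the same order of tumours. Between 2 and 38 cells per tumour were too shallow to thin. NK cells, which are not known to make Gas6, gave 0.593% thinned over all tumours, at a median of 9424 UMIs per cell against 11598 to 15570 in the macrophages. Of the 1054 NK cells 709 were from NTT, so this share mostly describes that tumour. Unthinned, 4 of 26 NK cells of RTT_ROSA26 had a Gas6 UMI, against 6 of 709 in NTT.

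Pros1, whose product protein S is the other TAM ligand, differed less between the tumours in the class. In macrophages it was at 9.60 CPM (NTT), 18.3 (RTT), 18.6 (RTT_ROSA26) and 15.97 (RTT_PTGS12KO). NTT over RTT gave -0.86 (-1.30 to -0.44), and knockout over control -0.21 (-0.30 to -0.11). Both missed the fold of 1 in the class. Within types, NTT over RTT was past it in both that could be compared, at -1.42 (-2.25 to -0.67) in TAM_cycling and -1.36 (-2.21 to -0.51) in TAM_H2Ab1. The class ratio rested on 39 UMIs in NTT and ran from -0.27 to -1.54 over the 3 loads. It was past the fold in load 3, at -1.01 as a mean over cells and at -1.39 with types weighted equally, but at -0.41 with the Macro type counted as macrophages. Among types with at least 20 cells, Macro had the highest Pros1 level in each tumour. It was 81.0 CPM (NTT), 66.3 (RTT), 124 (RTT_ROSA26) and 64.2 (RTT_PTGS12KO). The NTT value came from 21 cells and 21 UMIs, 8 of them in 1 cell, without which it was 54.2 CPM. In RTT, Macro held 68 of 2065 Pros1 UMIs and TAM_C1q 951. Over 4 macrophage types, Pros1 was higher in the knockout in 2 and lower in 2.

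Mfge8, the bridge to integrins, lay mostly outside the large macrophage types. In the macrophages as a class it was at 5.41 CPM in NTT and between 10.7 and 13.1 in the resistant tumours. Ctsk_Macro, an osteoclast-like type led by Ctsk, Mmp9 and Acp5, had 55.3 CPM in RTT, 60.6 in RTT_ROSA26 and 96.1 in RTT_PTGS12KO. Myofibrobl cells had 134, 156 and 101 CPM in the same tumours, and held 49.4% of all Mfge8 UMIs in RTT although they held 7.51% of all UMIs. In cDC2, a dendritic cell type, Mfge8 followed the order seen for Gas6 in macrophages, at 11.1 CPM (NTT), 47.5 (RTT), 74.4 (RTT_ROSA26) and 17.4 (RTT_PTGS12KO). In cDC2, NTT over RTT gave -2.004 (-2.63 to -1.41) and knockout over control -2.03 (-2.45 to -1.63). The 6 monocyte markers in cDC2 summed to 4927 CPM (NTT), 769 (RTT), 769 (RTT_ROSA26) and 2369 (RTT_PTGS12KO), opposite to Mfge8, and their part in the ratio was not tested. In DC3, another dendritic cell type, Mfge8 was not low in NTT. Without the cell with most UMIs it was at 49.4 CPM in NTT and 14.9 in RTT_PTGS12KO, from 35 and 15 UMIs in all.

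Mertk, the receptor kinase most tied to efferocytosis by macrophages, was lower in NTT and in the knockout, in the class by less than the fold of 1. RTT macrophages had the most, 68.5 CPM (66.9 to 70.2), followed by RTT_ROSA26 with 48.7 (47.4 to 50.1), NTT with 43.6 (37.4 to 50.5) and the knockout with 30.7 (29.6 to 31.9). NTT and RTT_ROSA26 overlapped. NTT over RTT gave -0.64 (-0.86 to -0.43), and knockout over control -0.65 (-0.71 to -0.58). The ratio was also -0.48 (-0.54 to -0.43) for RTT_ROSA26 against RTT, a gap between the 2 tumours that keep the cyclooxygenases. With TMM factors in place of UMI totals alone that gap, -0.58, was farther from 0 than the knockout ratio, -0.55. By type, Mertk in NTT over RTT was at -1.04 (-1.52 to -0.59) in TAM_cycling, past the fold, at -0.70 (-1.15 to -0.25) in TAM_H2Ab1 and, outside the class, at -1.30 (-1.65 to -0.94) in Infl_Mono. The macrophage markers in Infl_Mono moved with it, at 4764 CPM in NTT and 25754 in RTT, and their part was not tested. Mertk in Monocyte_1, at -0.18 (-0.42 to 0.07), and in neutrophils, at -0.55 (-1.25 to 0.12), did not exceed counting error. Mertk was lower in the knockout than in the control in TAM_C1q (43.0 and 59.9 CPM), TAM_Spp1 (28.8 and 42.4) and TAM_cycling (25.3 and 49.0). In Ctsk_Macro it was 15.5 and 12.6 CPM, with intervals that overlapped.

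Axl, the second receptor kinase, ran the other way. NTT macrophages had 139 CPM (128 to 151) and knockout macrophages 89.1 (87.2 to 91.1), against 50.6 (49.2 to 52.0) for RTT_ROSA26 and 36.4 (35.2 to 37.6) for RTT. NTT was highest and RTT lowest, with no overlap of intervals. NTT over RTT gave 1.91 (1.78 to 2.04), beside 0.81 (0.76 to 0.86) for knockout against control and 0.46 (0.40 to 0.53) for RTT_ROSA26 against RTT. The class value for NTT lay above those within types, 1.46 (1.23 to 1.69) in TAM_cycling and 1.04 (0.67 to 1.43) in TAM_H2Ab1, which holds most NTT macrophages, and was 1.21 with these types weighted equally. The 6 monocyte markers in macrophages moved with Axl, at 1783 CPM (NTT), 323 (RTT), 333 (RTT_ROSA26) and 642 (RTT_PTGS12KO), and their part in its ratios was not tested. Knockout macrophages had more Axl than control ones in 4 of 4 types compared, and past the fold of 1 in TAM_Spp1 (87.2 and 35.4 CPM) and Ctsk_Macro (138 and 50.5 CPM). In TAM_C1q the levels were 72.7 and 53.4 CPM, and in TAM_cycling 90.6 and 52.9 CPM. RTT_ROSA26 was also above RTT in 4 of 4 types, by 0.21 to 0.52 on the log2 scale.

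Axl was not a macrophage gene alone in these tumours. Monocytes had 84.7 CPM (NTT), 47.5 (RTT), 47.9 (RTT_ROSA26) and 75.4 (RTT_PTGS12KO). Their types differed between tumours, with 86 Infl_Mono and 54 Monocyte_1 cells in RTT_ROSA26 but 635 and 3347 in RTT_PTGS12KO. Within types, knockout against control did not exceed counting error, at 0.14 (-0.38 to 0.70) in Monocyte_1 and 0.44 (-0.24 to 1.19) in Infl_Mono. NTT over RTT did, at 0.90 (0.67 to 1.13) and 0.68 (0.35 to 1.03). Of 5295 Axl UMIs in NTT 61.0% were in Monocyte_1, which held 4977 of the 8266 cells there. In cDC2 the Axl level was 45.6 CPM (NTT), 32.0 (RTT), 32.1 (RTT_ROSA26) and 76.6 (RTT_PTGS12KO), and the ratio of knockout to control was 1.23 (0.89 to 1.58). The monocyte markers in cDC2, at 769 CPM in the control and 2369 in the knockout, moved with it, and their part was not tested. Myofibrobl cells had 80.6 CPM in RTT, 132 in RTT_ROSA26 and 106 in RTT_PTGS12KO. In the Macro type the knockout was not above the control, at 61.8 and 75.8 CPM, with a ratio of -0.29 (-0.74 to 0.16). Over the 9 types compared, Axl was higher in the knockout in 8, and 5 of the intervals lay above 0. After thinning, 32.7% of NTT macrophages had an Axl UMI, as did 8.83% (RTT), 12.2% (RTT_ROSA26) and 21.5% (RTT_PTGS12KO), against 2.37% of NK cells. For Mertk the thinned shares were 14.1%, 17.3%, 13.2% and 8.20%, against 1.19% of NK cells. The NK cells pooled for Axl and Mertk were likewise mostly from NTT.

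**Figure D2:**
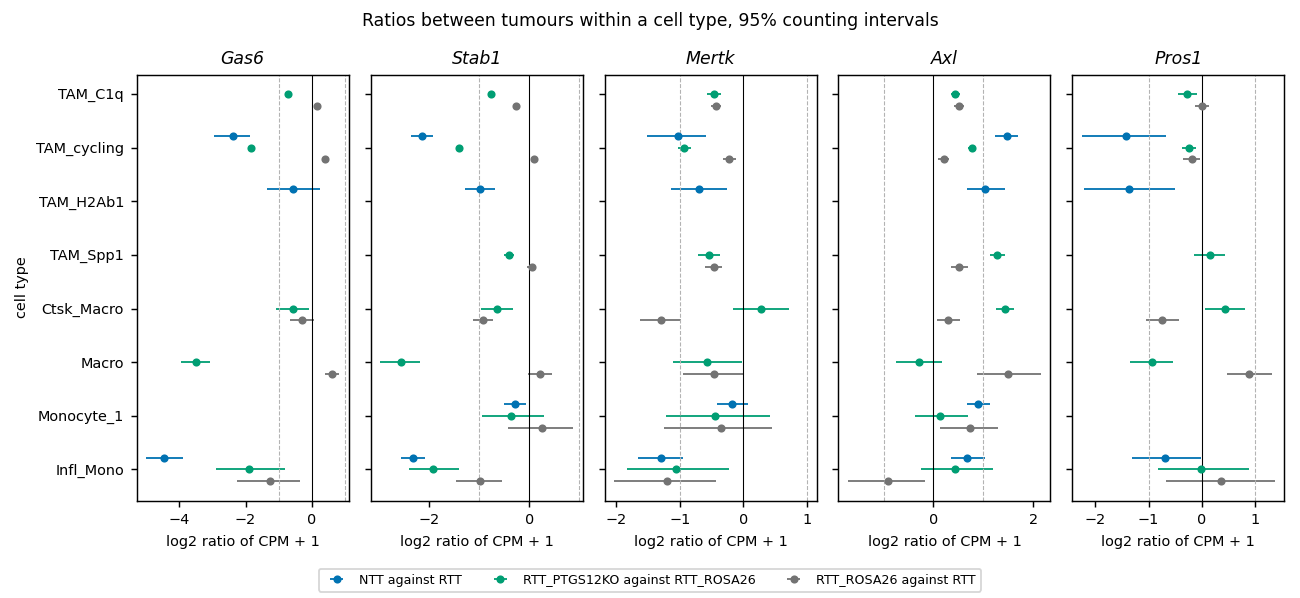
Log2 ratios of CPM + 1 between 2 tumours within a cell type, for types with at least 50 cells in both and genes whose mean was at least 10 CPM. Points are ratios, bars are 95% counting intervals, and dashed lines mark a log2 ratio of 1 either way. Gas6 and Stab1 lie left of 0 for NTT against RTT and for the knockout against its control in every type shown, and Axl lies right of 0 in all but the Macro type for those comparisons. Some bars cross 0. For the knockout they include Axl in Monocyte_1, Infl_Mono and Macro and Stab1 in Monocyte_1, and for NTT against RTT Gas6 in TAM_H2Ab1.

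The balance of the 2 receptors is read within the same cells and needs no scaling to depth. Macrophages of NTT had 3.20 Axl UMIs per Mertk UMI (2.70 to 3.81), and those of the knockout 2.90 (2.78 to 3.03). RTT had 0.531 (0.509 to 0.553) and RTT_ROSA26 1.04 (0.997 to 1.08). NTT and the knockout overlapped, and both stood above the other two. The order RTT, then RTT_ROSA26, then RTT_PTGS12KO held in TAM_C1q (0.458, 0.893 and 1.69), TAM_Spp1 (0.413, 0.833 and 3.03), TAM_cycling (0.798, 1.08 and 3.59) and Ctsk_Macro (1.26, 4.02 and 8.88). It was the same in Macro (0.318, 1.27 and 1.55), where the last pair overlapped. NTT gave 4.67 in TAM_cycling and 3.40 in TAM_H2Ab1, where the knockout gave 3.42 and RTT 1.00. Monocyte_1 had a value of 2.28 (NTT), 1.07 (RTT), 2.31 (RTT_ROSA26) and 3.52 (RTT_PTGS12KO). The ratio of RTT_ROSA26 in that type rested on 54 cells and ran from 1.17 to 4.82.

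**Figure D3:**
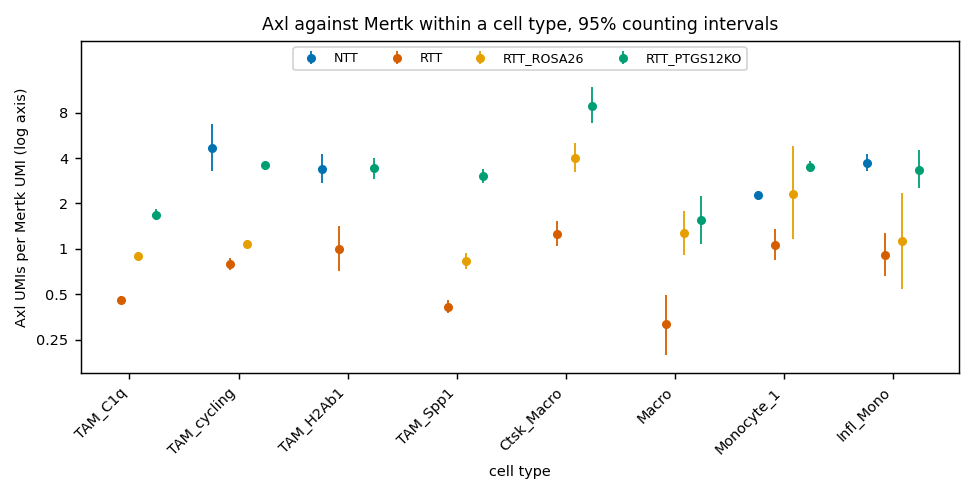
Axl UMIs per Mertk UMI on a log axis, in the macrophage and monocyte types with at least 50 cells in a tumour. Points are tumours and bars are 95% counting intervals. RTT is lowest in each type, from 0.318 in Macro to 1.26 in Ctsk_Macro.

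Timd4, the phosphatidylserine receptor of resident macrophages, was nearly absent from the tumour-associated macrophages. They held 0 Timd4 UMIs in NTT, which allows up to 0.738 CPM at 3 counts, and 13 to 18 UMIs (0.145 to 0.184 CPM) in the resistant tumours. Macro cells carried some. Their level was 25.3 CPM in RTT_ROSA26, from 8 of 130 cells, and 25.1 in RTT_PTGS12KO, from 8 of 96 cells. In RTT_PTGS12KO 12 of the 32 UMIs were in 1 cell, without which the level was 15.8 CPM. In RTT_ROSA26 9 of the 28 were, without which it was 17.3 CPM. RTT had no UMI in 99 Macro cells, and the 4 UMIs of NTT sat in 1 cell. The dendritic cells held most of the gene. In cDC2 it was at 48.2 CPM in NTT (30 of 282 cells with a UMI), 36.7 in RTT (15 of 174), 22.2 in RTT_ROSA26 (26 of 288) and 61.7 in RTT_PTGS12KO (44 of 344). A few cells carried much of this, since 29 of the 78 UMIs in RTT were in 1 cell, without which the level was 23.2 CPM. The cDC2 ratio of knockout to control was 1.43 (1.03 to 1.85). DC3 cells had 55.2 CPM in NTT and 46.8 in RTT_PTGS12KO.

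Stab1, the scavenger and phosphatidylserine receptor stabilin-1, followed Gas6. In macrophages it was at 130 CPM (NTT), 443 (RTT), 430 (RTT_ROSA26) and 197 (RTT_PTGS12KO). NTT over RTT gave -1.76 (-1.89 to -1.64), beside -1.12 (-1.15 to -1.10) for knockout against control and -0.04 (-0.06 to -0.03) for RTT_ROSA26 against RTT. TAM_C1q had 618 CPM in RTT, 515 in RTT_ROSA26 and 301 in RTT_PTGS12KO. TAM_cycling had 113 CPM (NTT), 503 (RTT), 536 (RTT_ROSA26) and 201 (RTT_PTGS12KO). TAM_H2Ab1 had 98.6 CPM in NTT and 197 in RTT, and the ratio there, -0.99 (-1.29 to -0.69), was short of the fold, against -2.15 in TAM_cycling. With types weighted equally, knockout against control was at -0.96 and no longer past the fold. TAM_Spp1 was lower and closer between tumours, at 126, 131 and 98.1 CPM in RTT, RTT_ROSA26 and RTT_PTGS12KO. Knockout was below control in the 9 types compared, from -2.58 in Macro to -0.36 in Monocyte_1, and 7 of the 9 intervals lay below 0. Those of Monocyte_1 (-0.94 to 0.29) and cDC2 (-1.02 to 0.30) did not. The lowest ratios were in Macro, neutrophils (-2.23) and Infl_Mono (-1.92). In these types the macrophage markers were lower in the knockout too, as given for Gas6, and their part was not tested. The study lists Stab1 as a marker of TAM_C1q, so its height in that type is not a separate result.

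**Figure D4:**
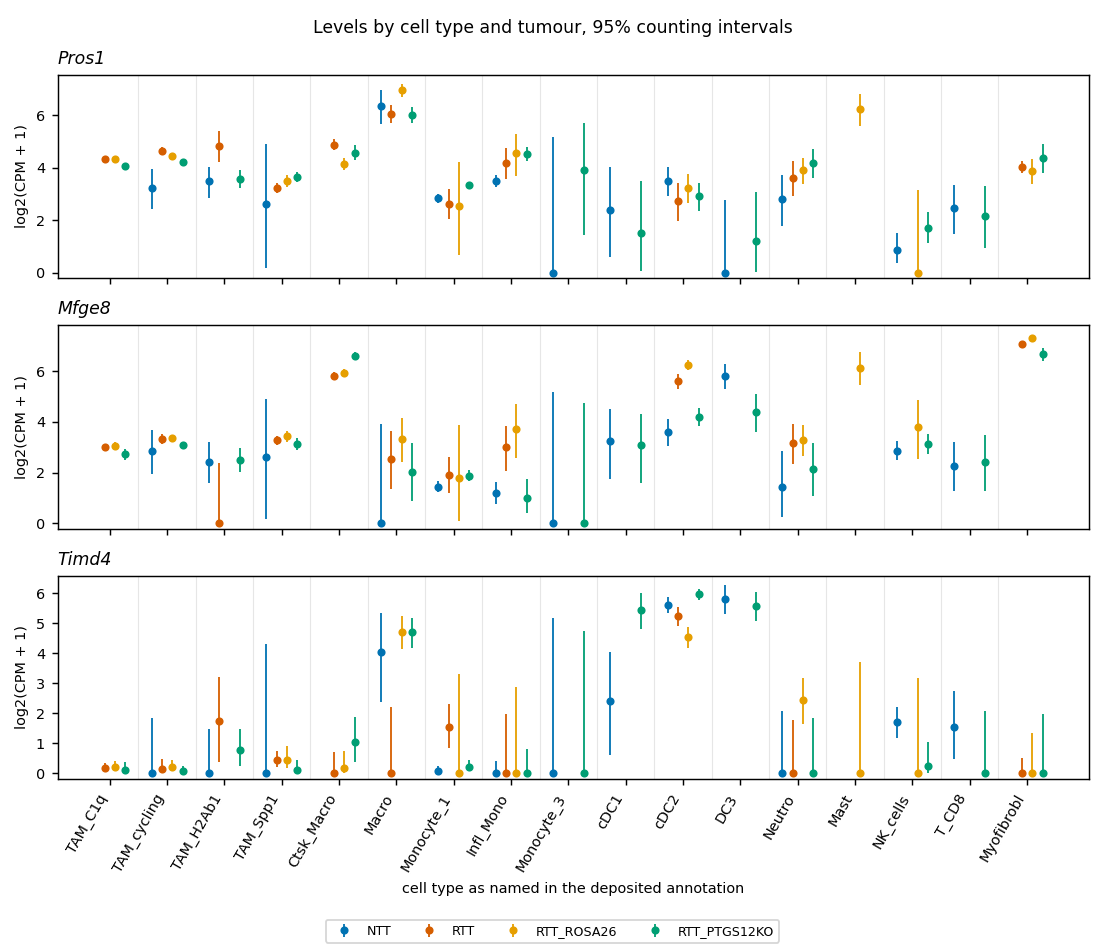
Levels of Pros1, Mfge8 and Timd4, as log2 of CPM + 1, in each cell type with at least 20 cells in a tumour. Each point is 1 tumour and bars are 95% counting intervals. Pros1 is high in Macro and Timd4 in dendritic cells and Macro. Mfge8 is high in Ctsk_Macro and Myofibrobl, in cDC2 for RTT and RTT_ROSA26, in DC3 for NTT and in Mast for RTT_ROSA26.

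Of the 7 genes, 5 had at least 10 CPM in macrophages for NTT against RTT. Axl was past the fold upwards, as were 5.10% of 6997 genes, and Gas6 and Stab1 downwards, as were 3.27%. For knockout against control, 6 had at least 10 CPM. None was past the fold upwards, against 2.26% of 7086 genes, and Gas6 and Stab1 were past it downwards, against 0.889%, with Gas6 alone when types were weighted equally. None of 6 was past it for RTT_ROSA26 against RTT, where the background was 0.524% upwards and 0.680% downwards. The median ratio of the genes with at least 10 CPM was -0.86 for NTT against RTT, beside 0.0018 over all genes, -0.46 for knockout against control, beside -0.083, and 0.15 for RTT_ROSA26 against RTT, beside 0.063. The 3 comparisons share tumours, as RTT_ROSA26 and RTT each enter 2 of them.

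When monocytes and macrophages were summed, so that their proportions entered too, the ratios of Gas6 and Stab1 for NTT against RTT and for knockout against control were farther from 0 and those of Axl closer to it. For NTT against RTT, Axl was past the fold upwards at 1.24 (background 7.41% of 6833 genes) and Gas6, Pros1 and Stab1 downwards (6.67%), at -4.60, -1.18 and -3.26. With CPM + 10 in place of CPM + 1, 2 genes in place of 3 were past it downwards. For knockout against control, none was past it upwards (3.57% of 7034 genes), with Axl at 0.73, and Gas6 and Stab1 downwards (1.73%), at -1.83 and -1.53, while all genes had a median of -0.13. None was past it for RTT_ROSA26 against RTT (0.596% upwards, 0.865% downwards). Within the class, marker sums moved. The 8 macrophage markers summed to 17582 CPM (NTT), 34659 (RTT), 27043 (RTT_ROSA26) and 16663 (RTT_PTGS12KO) in macrophages, with the 6 monocyte markers in the opposite direction as given for Axl. Their part in the ratios of Gas6, Stab1, Mertk and Axl was not tested.

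**Figure D5:**
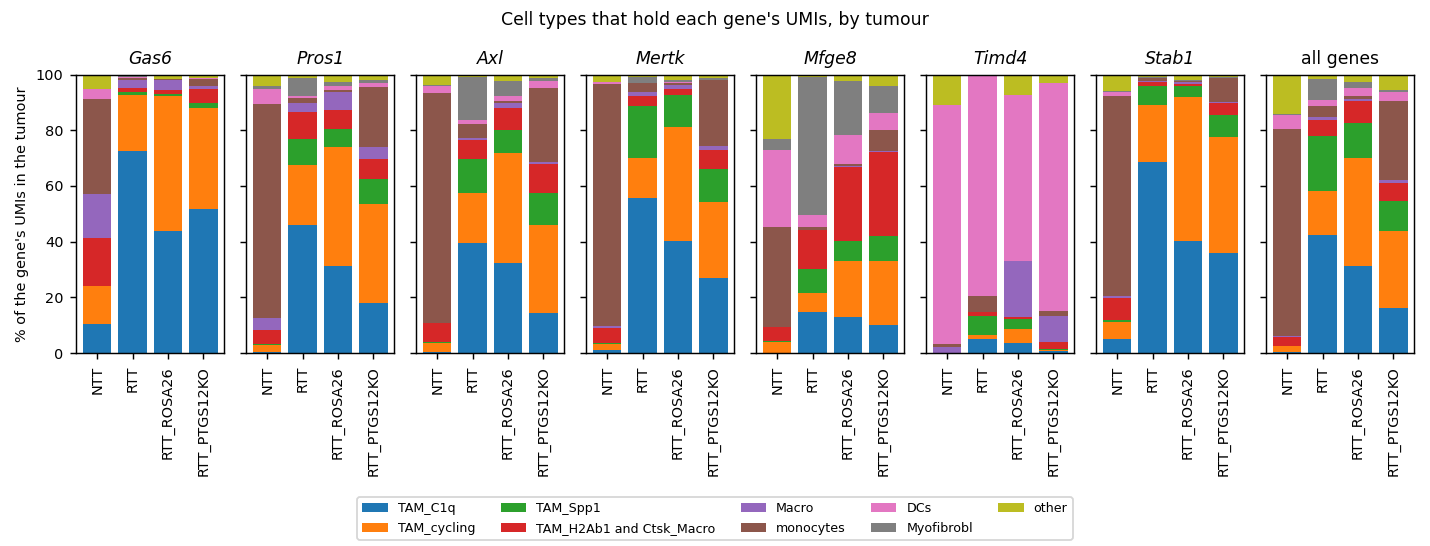
Percent of the UMIs of each gene, and of all genes at the right, that lay in each cell type or class, by tumour. TAM_C1q and TAM_cycling hold most Gas6 and Stab1 UMIs in the resistant tumours, whereas dendritic cells hold most Timd4 UMIs in every tumour.

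The wider system was read from lists of genes by role, within macrophages. Of 15 bridging molecules, 11 had at least 10 CPM. For NTT against RTT, 4 were past the fold downwards and none upwards (all genes: 5.10% upwards and 3.27% downwards). In the knockout against its control Gas6 alone was, downwards (all genes: 2.26% upwards and 0.889% downwards). Thbs1, which bridges corpses to CD36 and integrins, was at 248 CPM in NTT and 973 in RTT. Lgals3, which encodes galectin-3, had the highest ratio of the list in both comparisons, 0.35 and 0.45, short of the fold. Of 32 engulfment receptors, 20 could be read for NTT against RTT, with 5 past the fold upwards and 4 downwards, against the same 5.10% and 3.27% of all genes. For knockout against control 19 could be read, with Cd36 past it upwards and Stab1 downwards, against 2.26% and 0.889%. Itgax, an integrin subunit, was at 182 CPM in NTT and 43.6 in RTT. Cd36, a scavenger receptor, was at 43.5 CPM in the knockout and 13.5 in the control. Trem2, a lipid-sensing receptor, was lower in NTT, with a ratio of -1.35.

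Receptors for find-me signals, which guide phagocytes to dying cells, split. S1pr1, a receptor for sphingosine 1-phosphate, was lower in NTT than in RTT (2.71 and 21.2 CPM) and lower in the knockout than in the control (8.58 and 27.7 CPM). P2ry14, a receptor for UDP-sugars, was higher in both (66.9 and 11.4 CPM, then 17.0 and 5.84 CPM). Of 11 such receptors 9 could be read, with 1 past the fold upwards and 2 downwards for NTT against RTT (all genes: 5.10% upwards and 3.27% downwards). For knockout against control P2ry14 and Fpr2, a formyl peptide receptor, were past it upwards and 1 was downwards (all genes: 2.26% upwards and 0.889% downwards). Fpr2 was at 1.09 there but at -1.51 for RTT_ROSA26 against RTT (0.680% of all genes downwards), with 22.1 CPM in RTT, 7.10 in RTT_ROSA26 and 16.2 in the knockout. Of the cytoplasmic engulfment machinery none of 17 genes read for knockout against control was past the fold, beside the same shares of all genes for that comparison, and of 16 for NTT against RTT Dock1 alone was, at -1.12. The list of don't-eat-me genes held 8, receptors for the most part, and 6 could be read for NTT against RTT. Cd24a, which encodes a ligand of such receptors, was past the fold at -1.55, and none of 5 read was for knockout against control.

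Among 20 genes that process engulfed cells, Ctsd, a lysosomal protease, was at -1.27 for NTT against RTT and Slc29a3, a lysosomal nucleoside transporter, at 1.21. They were the 2 of 17 past the fold (all genes: 5.10% upwards and 3.27% downwards). None of 17 was past it for knockout against control, where Ctsd was at -0.96 (all genes: 2.26% upwards and 0.889% downwards). Of the lipid handling genes, Apoe, the lipid carrier, was at 6224 CPM in NTT and 22273 in RTT, and at 7112 in the knockout and 15233 in the control. Apoe is also one of the macrophage markers. Abca1 and Abcg1, the cholesterol exporters, went opposite ways for NTT against RTT, at -1.71 and 1.86. For this list 2 of 13 genes were past the fold upwards and 3 downwards for NTT against RTT, where 5.10% and 3.27% of all genes were. In the other comparison 1 was past it each way, where 2.26% and 0.889% of all genes were.

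The regulators and reported targets of TAM receptors included Socs1, through which these receptors are known to restrain cytokine signalling. Socs1 was at 73.3 CPM in NTT and 14.1 in RTT, and at 66.4 in the knockout and 7.14 in the control. It was thus high in the tumours whose macrophages had more Axl. Il10 had 8.37 CPM (NTT), 40.7 (RTT), 13.8 (RTT_ROSA26) and 7.93 (RTT_PTGS12KO). Its ratio of -1.49 for RTT_ROSA26 against RTT, which both keep the cyclooxygenases, was past the fold, and that of -0.73 for knockout against control was not. Of 14 genes read, 2 were past the fold upwards and 2 downwards for NTT against RTT (all genes: 5.10% upwards and 3.27% downwards). For knockout against control 3 were past it upwards and none downwards (all genes: 2.26% upwards and 0.889% downwards). Among 10 macrophage transcription factors, Irf8 was past the fold upwards in both comparisons (1.42 and 1.14). Maf was past it downwards for NTT against RTT (-1.20) and Id3 for knockout against control (-1.004). No other factor of the list was past it, beside the same shares of all genes.

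Over the 42 groups of 1 cell type in 1 tumour with at least 50 cells, the genes whose log2 levels were most like Gas6 among 7090 were Folr2 (Pearson r = 0.96), Npl (0.94), Cbr2 (0.94), Igf1 (0.93) and Cela1 (0.92). For Mertk they were Sash1 (0.93), Tmem87b (0.93), Ctsb (0.92), Mfsd1 (0.91) and Adam9 (0.90). Axl had no gene as close, with Itpripl2 (0.83), Ccnd1 (0.78), Myof (0.77), Pla2g4a (0.76) and Stx4a (0.75). Among the members, Gas6 and Stab1 gave 0.88, Mertk and Stab1 0.85, Gas6 and Mertk 0.69, Gas6 and Pros1 0.69, Axl and Mertk 0.38, and Gas6 and Axl 0.12. These values are across cell types that share tumours, loads and depth, and are a description.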

How the data were processed

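Live CD45+ cells of 4 tumours were tagged (10x CellPlex), pooled, loaded 3 times and sequenced from the 3′ end. The authors ran Cell Ranger multi on mm10, which assigns cells to tumours and removes tagged multiplets, and Seurat 4.3.0 with Harmony, and removed cells with fewer than 1000 genes or more than 15% mitochondrial or 40% ribosomal reads. The deposited matrix holds UMI counts per gene and cell, with no normalization, and a table of cell type names, which were used as given. No doublet caller was run. The 7 genes and all lists were chosen with earlier results of these data known.

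UMI counts were summed per cell type or class and tumour and divided by all UMIs there (CPM). Levels have exact Poisson intervals, ratios of CPM + 1 exact binomial ones, and shares exact Clopper-Pearson ones, at 95%. With 1 sample per group nothing was tested. Groups of at least 20 cells were shown and of at least 50 compared. Named list genes were taken from the 2 highest and 2 lowest ratios per list, and some are not reported here. Cells were thinned to 3000 UMIs with a fixed seed. The ratio step was tested on simulated data. Promoters came from RefSeq (GRCm38.p6), where all 7 genes matched. Alternatives were CPM + 10, TMM factors, a mean over cells, equal weights of types, other class borders, stricter cell filters and single loads. Software was Python 3.11.15, numpy 2.4.6, pandas 2.3.3, scipy 1.17.1, matplotlib 3.10.9, R 4.3.3 and edgeR 4.0.16, the last for TMM factors only. Depth was 69332486 to 146829369 UMIs per tumour.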

Additional observations from a re-analysis of the deposited data

Results flagged for a closer look

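In 4 cases a gene had log2 ratios whose counting intervals lay on opposite sides of 0 in 2 cell types under 1 comparison, at least 1 of them past the fold. The differences between the types were not tested. For RTT_PTGS12KO against RTT_ROSA26, Mfge8 was at 0.66 in Ctsk_Macro (96.1 and 60.6 CPM) and at -2.03 in cDC2 (17.4 and 74.4 CPM). The other 3 were for RTT_ROSA26 against RTT, the tumours that both keep the cyclooxygenases. Gas6 was at 0.91 in neutrophils and at -1.26 in Infl_Mono, where 11 and 60 UMIs were counted. Of the 60 in RTT 16 were in 1 cell, without which the level was 35.2 CPM in place of 47.1. The macrophage markers in Infl_Mono were also lower in RTT_ROSA26 than in RTT, and their part was not tested. Axl was at 1.49 in Macro and at -0.91 in Infl_Mono, with 18 and 76 UMIs in the latter. Timd4 was at 2.74 (2.41 to 4.72) in Macro and at -0.70 in cDC2. The Macro value sets RTT, which had no UMI, to a count of 3, and 9 of the 28 UMIs of RTT_ROSA26 were in 1 cell, without which its level was 17.3 CPM in place of 25.3.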

How the results depend on the processing

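No paired analysis was possible because there was 1 sample per group, and no replicate could be left out. Of 494 ratios computed under alternatives, 27 had the other sign, none of them from a ratio of 1 or more either way in the report. Of the ratios of Gas6, Axl and Mertk in macrophages for NTT against RTT and for knockout against control, the following moved by more than their counting interval, and those of Pros1 and Stab1 that changed a call are given beside them above. For NTT against RTT, Gas6 was at -1.76 with CPM + 10, -1.80 with types weighted equally, -1.81 with Macro counted, -1.84 in load 1 and -2.69 in load 3, and Axl at 1.69 with CPM + 10, 2.35 with the NK cell level subtracted and 1.21 with equal weights (TAM_cycling and TAM_H2Ab1 alone). For RTT_PTGS12KO against RTT_ROSA26, Gas6 was at -1.19 with CPM + 10, -1.25 with TMM factors, -1.16 as a mean over cells, -1.44 with the NK level subtracted, -1.09 with equal weights and -1.29 in load 1. Axl was at 0.71, 0.90, 0.98, 0.999 (short of the fold) and 0.73 with CPM + 10, TMM, NK subtraction, equal weights and load 1. Mertk was at -0.53, -0.55, -0.73 and -0.53 with the first 4 of these. Equal weights left 1 gene past the fold, Gas6, in place of 2 for that comparison, in macrophages and with monocytes added. For NTT against RTT, 4 genes in place of 3 were past it in macrophages as a mean over cells, with equal weights and in load 3. With monocytes added, 5 in place of 4 were with no minimum CPM, as a mean over cells, with the NK level subtracted and in load 1, and 3 were with CPM + 10. For RTT_ROSA26 against RTT, Gas6 ran from 0.20 (TMM) to 0.40 (load 2), Axl from 0.37 (equal weights) to 0.65 (NK subtraction) and Mertk from -0.58 (TMM) to -0.42 (CPM + 10). The cause was not tested. Among macrophages, depth limits NTT most, with 308 cells and 80 Gas6 UMIs. Monocytes of RTT_ROSA26 were thinner still, with 144 cells and 12 Gas6 UMIs.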
